A study of Mus musculus with 800 samples.

Results

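The Kv3 genes encode the pore subunits of the Kv3 voltage-gated potassium channels, and 3 of them, Kcnc1 (Kv3.1), Kcnc2 (Kv3.2) and Kcnc4 (Kv3.4), were followed here out of 32285 genes in a table of single-nucleus read counts. They were taken by matching the table's Ensembl identifiers to these symbols. The matching used no measured value, but the members were chosen with earlier results of these data known. All 3 were found once. The 800 labelled nuclei came from young adult C57Bl/6J mice given a PHP.eB adeno-associated virus, a capsid that reaches the brain from the blood, at 5e11 viral genomes per mouse. Each virus carried 1 promoter or enhancer driving H2B-SYFP2, a histone-bound yellow fluorescent protein, and fluorescent nuclei were sorted 3 to 4 weeks later. There were 20 such vectors with 40 nuclei each: 16 enhancers known by a code, the neuronal promoter hSyn1, the viral promoter CMV, and DLX2.0 and hI56i. The labels call every nucleus anterior lateral motor cortex, while the study's design text also names striatum and visual cortex. No label names an animal, so each vector was 1 sample, and the p-values below measure the spread between sums of nuclei of different vectors, which may be partly technical. SMART-Seq v4, the full-length method used on each nucleus, keeps neither strand nor molecule barcodes. Levels are in CPM, reads of a gene scaled to a library total of 1e6, so they count reads and grow with transcript length.

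Kv3 channels open at strongly depolarised voltages and close fast, so they end the action potential quickly and let a neuron fire again at once. Subunits of different genes can join in 1 channel. In cortex and striatum Kv3.1 and Kv3.2 are best known from fast-spiking interneurons that express parvalbumin, Kv3.2 also from somatostatin interneurons, and Kv3.4 from axons and presynaptic endings.

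Per the GENCODE M21 annotation of mm10, Kcnc1 (ENSMUSG00000058975) lies at chr7:46396497-46438704 on the plus strand, Kcnc2 (ENSMUSG00000035681) at chr10:112271121-112467024 on the plus strand and Kcnc4 (ENSMUSG00000027895) at chr3:107438303-107459552 on the minus strand. No other annotated gene overlaps any of the 3. The promoter windows of the members, from 250 bases before a start to 50 after it, are shown because the genes with high interneuron levels, Kcnc1 and Kcnc2, have windows that differ in CpG content. They come from RefSeq on GRCm38.p6, read 5′ to 3′ on the gene's strand, and capitals mark the GC box GGGCGG on either strand.
Kcnc1, chr7:46396218-46396517, plus strand: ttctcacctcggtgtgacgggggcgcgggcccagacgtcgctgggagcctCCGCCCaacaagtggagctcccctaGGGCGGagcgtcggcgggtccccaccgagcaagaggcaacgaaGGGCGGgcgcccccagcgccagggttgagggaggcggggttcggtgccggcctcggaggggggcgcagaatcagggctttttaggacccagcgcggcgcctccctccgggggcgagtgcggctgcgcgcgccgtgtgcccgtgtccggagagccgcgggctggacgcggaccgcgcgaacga
Kcnc2, chr10:112270871-112271170, plus strand: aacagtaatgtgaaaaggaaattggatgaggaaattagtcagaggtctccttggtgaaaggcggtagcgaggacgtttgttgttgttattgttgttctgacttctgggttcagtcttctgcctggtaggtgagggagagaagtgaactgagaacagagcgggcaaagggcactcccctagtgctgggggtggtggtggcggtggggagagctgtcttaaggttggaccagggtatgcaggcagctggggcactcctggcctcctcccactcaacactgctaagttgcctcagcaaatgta
Kcnc4, chr3:107458849-107459148, minus strand: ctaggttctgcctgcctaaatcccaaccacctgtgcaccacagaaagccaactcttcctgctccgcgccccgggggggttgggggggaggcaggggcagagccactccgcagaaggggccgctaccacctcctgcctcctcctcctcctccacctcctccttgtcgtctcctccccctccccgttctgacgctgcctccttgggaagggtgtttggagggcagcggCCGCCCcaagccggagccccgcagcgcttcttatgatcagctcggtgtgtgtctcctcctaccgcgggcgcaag
The Kcnc1 window held 41 CpG dinucleotides, more than 96.5% of the 32851 mouse promoter windows, with a GC content of 74.7% and 3 GC boxes. Kcnc2 has 4 RefSeq windows, and the one shown is placed on the GENCODE start of the gene. It held 5 CpG and 0 GC boxes, and 38% of windows held fewer CpG. Over its 4 windows the CpG count ran from 3 to 6, and 1 of them, not shown, held 1 GC box. The Kcnc4 window, which lies inside the GENCODE gene, held 17 CpG and 1 GC box. The median window held 7 CpG, and 35.7% of windows held a GC box. The other motifs searched on both strands were the CRE TGACGTCA (in 1.79% of windows), the nuclear receptor letters AGGTCA (16.3%), the E-box CACGTG (7.15%), the AP-1 letters TGANTCA (7.81%) and TATAAA (13.6%), and the 3 windows shown held none of them. These are letters in a window, not sites shown to be used.

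Depth was a median of 260170 counts per nucleus, and 698 nuclei with at least 1000 genes detected were clustered with the Kv3 genes and the lists named below left out. Clusters were named from markers and called "-like" because the names rest on RNA alone. GABAergic interneuron-like nuclei numbered 273, striatal projection neuron-like 161, glutamatergic-like 108, astrocyte-like 106 and oligodendrocyte-like 50. The striatal projection neuron-like nuclei held all 10 of their markers in at least 25% of nuclei although every label says cortex. Interneuron-like nuclei had 9 of 12 of their own markers at that share and 26.8 CPM of the 6 glutamatergic markers summed, against 1222 CPM in glutamatergic-like nuclei, where all 6 were present. The 10 striatal projection neuron markers summed to 473 CPM in interneuron-like nuclei, against 9658 CPM in striatal projection neuron-like nuclei, and what these small amounts add to a Kv3 level was not tested. Within the interneuron-like nuclei 99 were Pvalb-like, 80 Sst-like and 94 of other subclusters. The library names give 4 library series, and values within the largest, S40326 (408 nuclei), stand beside the tests.

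Reads of Kcnc1 and Kcnc2 lay mostly in interneuron-like nuclei, and reads of Kcnc4 were sparse in every class. Of the Kcnc1 signal summed over nuclei, 91.6% lay in interneuron-like nuclei, which were 39.1% of nuclei, and for Kcnc2 it was 91.3%. For Kcnc4 it was 34.2%, with 48.6% in glutamatergic-like nuclei. Kcnc1 averaged 572 ± 184 CPM in interneuron-like sums (SD, n = 18 vectors with at least 3 such nuclei), with a lowest vector at 128, a median of 591 and a highest at 786 CPM. It averaged 30.4 ± 42.8 CPM in striatal projection neuron-like sums (n = 14), 85.6 ± 77.5 in glutamatergic-like (n = 12), 16.1 ± 30.6 in astrocyte-like (n = 9) and 6.99 ± 18.5 in oligodendrocyte-like sums (n = 7). All but 2 of the 18 interneuron-like sums lay above every sum of the other classes, and those 2 were hI56i at 128 and AiE0450h at 163 CPM. In the descending order interneuron, glutamatergic, striatal projection neuron, astrocyte and oligodendrocyte, the ranges of the last 4 overlapped, since each held a vector at 0.

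Kcnc2 averaged 275 ± 134 CPM in interneuron-like sums (n = 18), from 2.58 in hI56i through a median of 254 to 573 CPM. It averaged 2.61 ± 5.06 CPM in striatal projection neuron-like sums, 56.3 ± 50.7 in glutamatergic-like, 7.64 ± 22.9 in astrocyte-like, and had no read in oligodendrocyte-like sums, where 3 counts would have been 0.197 CPM. Among the non-neuronal sums the Kcnc2 reads lay in 1 vector of 9, DLX2.0. Kcnc4 averaged 6.78 ± 11.4 CPM in interneuron-like sums, with 10 of 18 at 0, and 25.1 ± 27.9 CPM in glutamatergic-like sums, from 0 through a median of 17.8 to 75.5 CPM. It averaged 7.31 ± 8.14 CPM in astrocyte-like sums and had no read in striatal projection neuron-like or oligodendrocyte-like nuclei. By length, over the exons of each gene in GENCODE M21, pooled interneuron-like nuclei held 63.8 CPM per kilobase of Kcnc1, 40.4 of Kcnc2 and 2.08 of Kcnc4, and glutamatergic-like nuclei held 7.72, 8.92 and 7.70 CPM per kilobase. These pooled values per length were thus close in glutamatergic-like nuclei and far apart in interneuron-like nuclei, and they carry no error. Between vectors the SDs of the glutamatergic-like levels were near their means, and 5 of 12 Kcnc4 sums were 0. The length is that of all annotated exons, not of a transcript in use. Whether the authors counted intronic reads is not given in the sources used here.

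**Figure D1:**
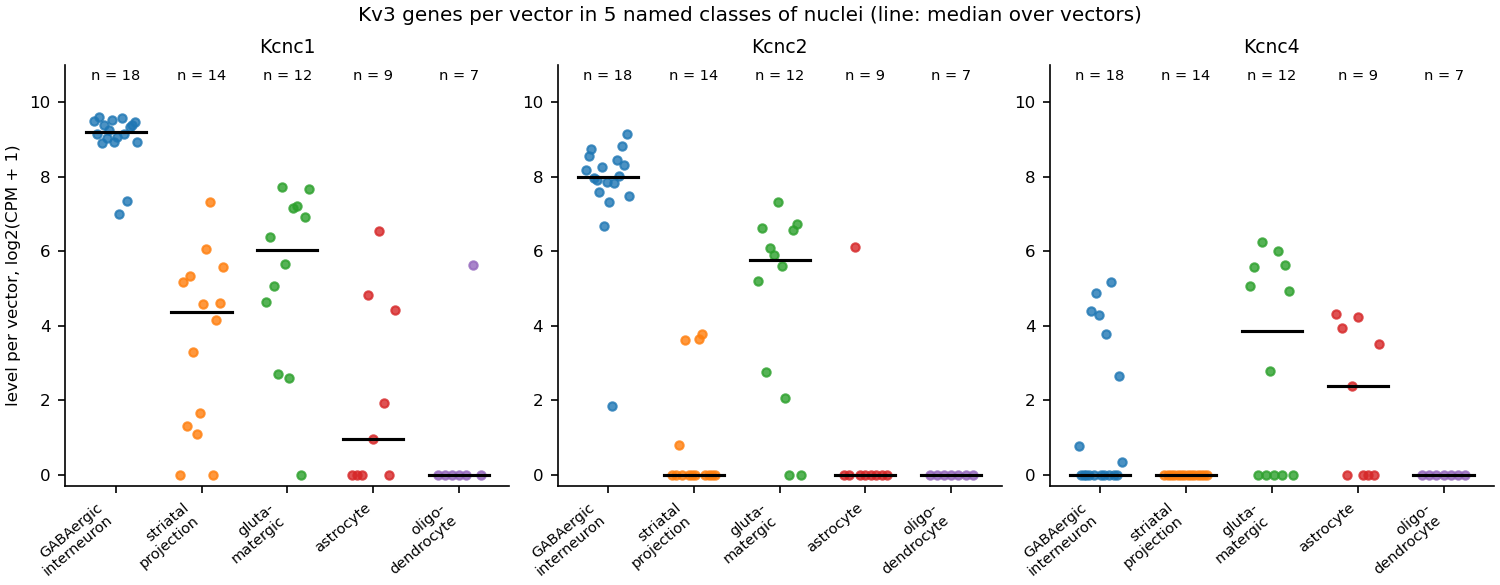
Level of each Kv3 member per vector, as log2(CPM + 1) on the vertical axis, in the 5 named classes on the horizontal axis; each point is the sum of at least 3 nuclei of 1 vector, the line is the median and n is the number of vectors. Kcnc1 and Kcnc2 are highest in interneuron-like sums with medians of 591 and 254 CPM, and Kcnc4 is at 0 in all 14 striatal projection neuron-like sums.

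Kcnc1 had a read in 81.3% of interneuron-like nuclei (222 of 273, exact Clopper-Pearson 95% interval 76.2 to 85.8%), 19.3% of striatal projection neuron-like (13.5 to 26.2%), 38.9% of glutamatergic-like (29.7 to 48.8%), 8.49% of astrocyte-like (3.96 to 15.5%) and 2% of oligodendrocyte-like nuclei (1 of 50). The glial shares are given for comparison, and the source of the glial reads was not tested. Glia had the deeper libraries, with median counts of 300958 in astrocyte-like and 297629 in oligodendrocyte-like, against 254316 in interneuron-like nuclei. Kcnc2 had a read in 63.4% of interneuron-like nuclei, 3.11% of striatal projection neuron-like (1.02 to 7.10%), 25.9% of glutamatergic-like and 2.83% of astrocyte-like nuclei, so the striatal projection neuron-like share lay within counting error of the astrocyte-like one. Kcnc4 had a read in 5.49% of interneuron-like nuclei (15 of 273), 14.8% of glutamatergic-like (16 of 108) and 4.72% of astrocyte-like nuclei (5 of 106), so the share over all interneuron-like nuclei lay within counting error of the astrocyte-like one. Of those 15 nuclei 6 lay in 1 subcluster, led by Nos1 and described below, where the share was 25% (6 of 24, 9.77 to 46.7%). It was seen in 0 of 161 striatal projection neuron-like nuclei, which allows a share of up to 2.27% (upper Clopper-Pearson bound). Thinned to 150000 counts per nucleus, the Kcnc1 share was 81.2% in interneuron-like, 18.1% in striatal projection neuron-like and 38.6% in glutamatergic-like nuclei. A single nucleus held up to 4826 CPM of Kcnc1, in a Pvalb-like nucleus, and intervals here cover counting error only.

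The first comparison asks whether the Kv3 genes separate inhibitory interneurons from excitatory neurons that took up the same vector. All labels name the same cortical area, although striatal projection neuron-like nuclei were present. Whether both classes came from the same region was not tested, here or in the comparisons below. Kcnc1 was higher in interneuron-like sums in all 12 vectors that held both, with 556 ± 216 CPM in interneuron-like and 85.6 ± 77.5 CPM in glutamatergic-like sums (SD), a log2 fold change of 3.28 (SE 0.63; edgeR's quasi-likelihood test with vector as a block gave an adjusted p of 0.00205). Its lowest, median and highest levels were 128, 631 and 786 CPM in interneuron-like sums, against 0, 66.5 and 210 CPM in glutamatergic-like sums, and the ranges overlapped only through hI56i and AiE0450h. Of all 8943 genes tested, 3.16% passed the threshold of 0.05 in either direction, with 1.69% higher and 1.48% lower in interneuron-like sums, and of the members 2 were tested and 1, Kcnc1, passed. Kcnc2 had 261 ± 118 CPM in interneuron-like and 56.3 ± 50.7 CPM in glutamatergic-like sums, and was higher in 11 of 12 vectors. The levels ran from 2.58 through 249 to 453 CPM in interneuron-like sums, against 0, 53.5 and 158 CPM in glutamatergic-like sums. The exception was hI56i, with 2.58 CPM in 4 interneuron-like nuclei and 47.6 CPM in 6 glutamatergic-like nuclei. Its log2 fold change of 2.82 (SE 0.94) missed the threshold (edgeR, adjusted p = 0.125), and passed without hI56i (3.23, adjusted p = 0.0321), with DESeq2 (adjusted p = 0.000428), with limma (adjusted p = 3.72e-06) and without the filter on low counts (adjusted p = 0.00894). Kcnc4 did not pass the filter. It had 7.33 ± 11.8 CPM in interneuron-like and 25.1 ± 27.9 CPM in glutamatergic-like sums. Its level was lower in 6 and higher in 3 vectors (without the filter edgeR gave a log2 fold change of -2.47, SE 2.13, and an adjusted p of 0.843). The Kcnc1 call was lost within series S40326 (log2 fold change 3.20, adjusted p = 0.0998) and without the Pvalb-like nuclei (2.43, adjusted p = 0.0766), both by the same edgeR test.

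The second comparison sets the interneurons against the other inhibitory neurons present. Both tested members were higher in interneuron-like than in striatal projection neuron-like sums in 12 of 12 vectors, where 8.53% of 9210 genes were called, 5.34% higher and 3.19% lower. Kcnc1 had 521 ± 192 CPM in interneuron-like and 31.6 ± 45.4 CPM in striatal projection neuron-like sums, a log2 fold change of 5.16 (SE 0.83; adjusted p = 0.000184 in the edgeR fit). The interneuron-like sums ran from 128 through 555 to 741 CPM, against 0, 19.9 and 161 CPM in striatal projection neuron-like sums. Kcnc2 had 232 ± 119 CPM in interneuron-like and 3.04 ± 5.37 CPM in striatal projection neuron-like sums, where 8 of 12 sums held no read. Its fitted log2 fold change of 8.47 (SE 1.14, adjusted p = 2.35e-05 by edgeR) stands beside a ratio of the mean levels of 76.4. The size moved with the setting, and the call held in each. It was 4.45 with limma, 6.00 without the block, 6.51 with a marker score per nucleus in place of clusters, and 10.05 with equal numbers of nuclei. Within series S40326 both calls held, at 5.29 for Kcnc1 and 8.82 for Kcnc2. Kcnc4 did not pass the filter (adjusted p = 0.112 by edgeR without it). It had 398 counts in 5 of 12 interneuron-like sums and 0 in the striatal projection neuron-like sums. Pooled over vectors, its interneuron-like level was 91.9 times a floor of 3 counts over the other group. Reads of 1 nucleus are not independent, so such a ratio to the floor is no lower bound on the difference. Over all nuclei Kcnc4 was read in 5.49% of interneuron-like ones, against 0 of 161 striatal projection neuron-like ones (up to 2.27%). Without AiE0387m, which held 133 of the 398 counts, the ratio to the floor was 57.2. The levels of the vector AiE0450h stood apart in this comparison, with Kcnc1 at 163 CPM in 7 interneuron-like and 161 CPM in 17 striatal projection neuron-like nuclei.

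The third pair of neuronal classes gave no call for the member tested. Kcnc1 had 33.5 ± 50.0 CPM in striatal projection neuron-like and 86.3 ± 85.9 CPM in glutamatergic-like sums over 9 vectors, lower in 5 and higher in 3 (edgeR's log2 fold change was -1.58, SE 1.26, with an adjusted p of 0.834), where 3.08% of 7595 genes were called, 1.66% higher and 1.42% lower in striatal projection neuron-like sums. It passed with limma on the mean of log2(CPM + 1) over nuclei (-1.81, adjusted p = 0.0316). Kcnc2 did not pass the filter, with 1.51 ± 4.26 CPM in striatal projection neuron-like and 59.9 ± 53.9 CPM in glutamatergic-like sums, lower in 7 of 9 vectors, and without the filter its log2 fold change was -7.78 (SE 2.29, adjusted p = 0.0357 by edgeR). Kcnc4 had 0 counts in striatal projection neuron-like and 222 counts in glutamatergic-like sums (adjusted p = 0.405 by edgeR without the filter). Its pooled glutamatergic-like level was 124 times the same floor, again no lower bound on the difference. Of those 222 counts 123 came from AiE0140h, without which the ratio was 55.5, and 5 of the 9 glutamatergic-like sums held no read. These 3 comparisons share the sums of the same vectors and are not independent of each other.

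Among interneuron kinds, Kcnc1 was higher in Pvalb-like than in Sst-like sums, and Kcnc2 gave no call. The Pvalb-like nuclei held 586 CPM of Pvalb and 20.6 CPM of Sst on average, against 18.4 CPM of Pvalb and 8243 CPM of Sst in Sst-like nuclei. Kcnc1 ran from 894 through a median of 1022 to 1796 CPM in the Pvalb-like sums of the 11 vectors that held both kinds. The Sst-like sums of these vectors ran from 92.2 through 170 to 728 CPM, so the paired ranges did not overlap. Outside these vectors Kcnc1 was as low as 220 CPM in Pvalb-like nuclei, in AiE0450h (3 nuclei), within the Sst-like range. It was higher in Pvalb-like sums in 11 of 11 vectors, with means of 1180 ± 303 and 245 ± 178 CPM in Pvalb-like and Sst-like sums, a log2 fold change of 2.48 (SE 0.34; edgeR, adjusted p = 7.47e-05). Of 7123 genes 0.758% were called here, 0.323% higher and 0.435% lower in Pvalb-like sums. Kcnc2 ran from 110 through 255 to 496 CPM in Pvalb-like sums, against 52.1, 246 and 791 CPM in Sst-like sums, higher in 6 vectors and lower in 5. Its log2 fold change was 0.09 (SE 0.45, adjusted p = 0.999 by edgeR), with a sign that turned under several settings, and this spread does not show that the kinds have equal levels. Kcnc4 was nearly absent from Pvalb-like nuclei, with 3 counts over 99 nuclei in all, while 3 of 11 Sst-like sums held between 23.4 and 52.9 CPM (adjusted p = 0.959 by edgeR without the filter). The Kcnc1 call held within series S40326 (log2 fold change 2.31, adjusted p = 0.0465) and was lost with at least 5 nuclei per sum (2.04, adjusted p = 0.176, 5 vectors) and without runs of titles that held a striatal projection neuron-like nucleus (2.42, adjusted p = 0.0564). With a marker score per nucleus in place of clusters it was 1.70 (adjusted p = 0.0406), and with a minimum of 2000 genes it was 5.07 in the 3 vectors left, each by edgeR.

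The mix of the members is given as a description. Kcnc2 made up 17.6 ± 7.38% of the Kcnc1 and Kcnc2 counts in Pvalb-like sums (from 6.71 to 27.3%) and 49.9 ± 17.4% in Sst-like sums (from 28.6 to 82.4%), a difference of -32.3 percentage points (SD 16.6, n = 11 vectors), lower in Pvalb-like sums in 11 of 11 vectors. This quantity was chosen after the levels were seen, uses the same counts as the Kcnc1 test above and so adds no independent evidence, and is a share of reads, not of molecules, since the transcripts differ in length. Kcnc1 and Kcnc2 were read together in 68.7% of Pvalb-like nuclei, and all 68 Pvalb-like nuclei with a Kcnc2 read also had a Kcnc1 read. In Sst-like nuclei 41 of 80 had both, 9 had Kcnc1 alone and 14 had Kcnc2 alone.

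**Figure D2:**
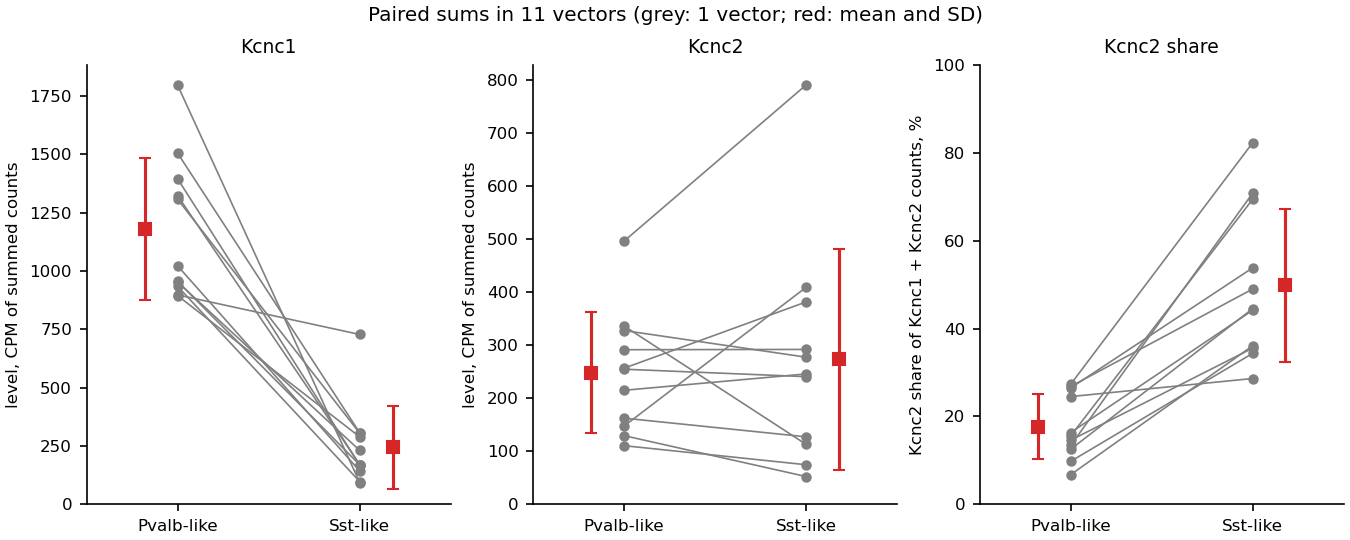
Kcnc1 level, Kcnc2 level (CPM of summed counts) and the Kcnc2 share of Kcnc1 plus Kcnc2 counts (percent) in Pvalb-like and Sst-like sums; a grey line joins the sums of 1 vector, and red squares with bars are the mean and SD over 11 vectors. Every Kcnc1 line falls toward Sst-like and every share line rises, while the Kcnc2 lines run both ways.

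The levels in the 9 interneuron-like subclusters are pooled, with an exact Poisson 95% interval, and differences between them were not tested. These intervals take reads as independent and leave out the wider spread between nuclei and vectors. Both larger Pvalb-like subclusters had high Kcnc1. The one with Mybpc1 among its leading genes (33 nuclei) had 1287 CPM (1262 to 1312), and from 796 to 2202 CPM over 6 vectors. The one led by Prss23 (47 nuclei) had 1109 CPM (1091 to 1128), and from 777 to 1788 CPM over 8 vectors. Their Kcnc2 levels were 354 and 378 CPM. The Pvalb-like subcluster with Pthlh, a parathyroid hormone-like peptide gene, among its leading genes had 527 CPM of Kcnc1 (508 to 548), read in 17 of 19 nuclei, and 54.4 CPM of Kcnc2, read in 2 of 19 (10.5%, 1.30 to 33.1%). Kcnc2 was also low, at 12.2 CPM and 3 of 26 nuclei, in the subcluster led by Vip and Adarb2, which the marker rule named Lamp5-like. Vip was read in 26.9% and Adarb2 in 96.2% of its nuclei. It held 270 CPM of Kcnc1, read in 18 of 26 nuclei. The opposite mix was seen in the subcluster led by Spon1 and Trhde (22 nuclei), with 468 CPM of Kcnc1 and 734 CPM of Kcnc2 (711 to 757), the highest Kcnc2 level among the 9. Its nuclei averaged 1783 CPM of Sst, read in 86.4% of them, and 71.8 CPM of Pvalb, read in 36.4%, and it was left unnamed by the marker rule and outside the comparison of Pvalb-like with Sst-like sums. The Sst-like subcluster led by Nos1, a nitric oxide synthase gene, had Chodl among its leading genes, read in 41.7% of its nuclei. It had 36 CPM of Kcnc1, read in 7 of 24 nuclei, 176 CPM of Kcnc2 in 14 of 24, and 49.5 CPM of Kcnc4 (44.5 to 54.9) in 6 of 24. The other Sst-like subcluster (56 nuclei) had 360 CPM of Kcnc1, 285 CPM of Kcnc2 and 0.997 CPM of Kcnc4. Without the Nos1 subcluster the Kcnc1 difference between Pvalb-like and Sst-like sums was 2.09 (adjusted p = 0.00574 by edgeR), and without the Pthlh subcluster 2.50 (adjusted p = 0.00024 by edgeR). The subcluster led by Lhx8 (19 nuclei) had 466 CPM of Kcnc1, 159 CPM of Kcnc2 and 23.4 CPM of Kcnc4, and the one with Cort among its leading genes, whose nuclei averaged 193 CPM of Pvalb and 1045 CPM of Sst (27 nuclei), had 608, 359 and 0 CPM.

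**Figure D3:**
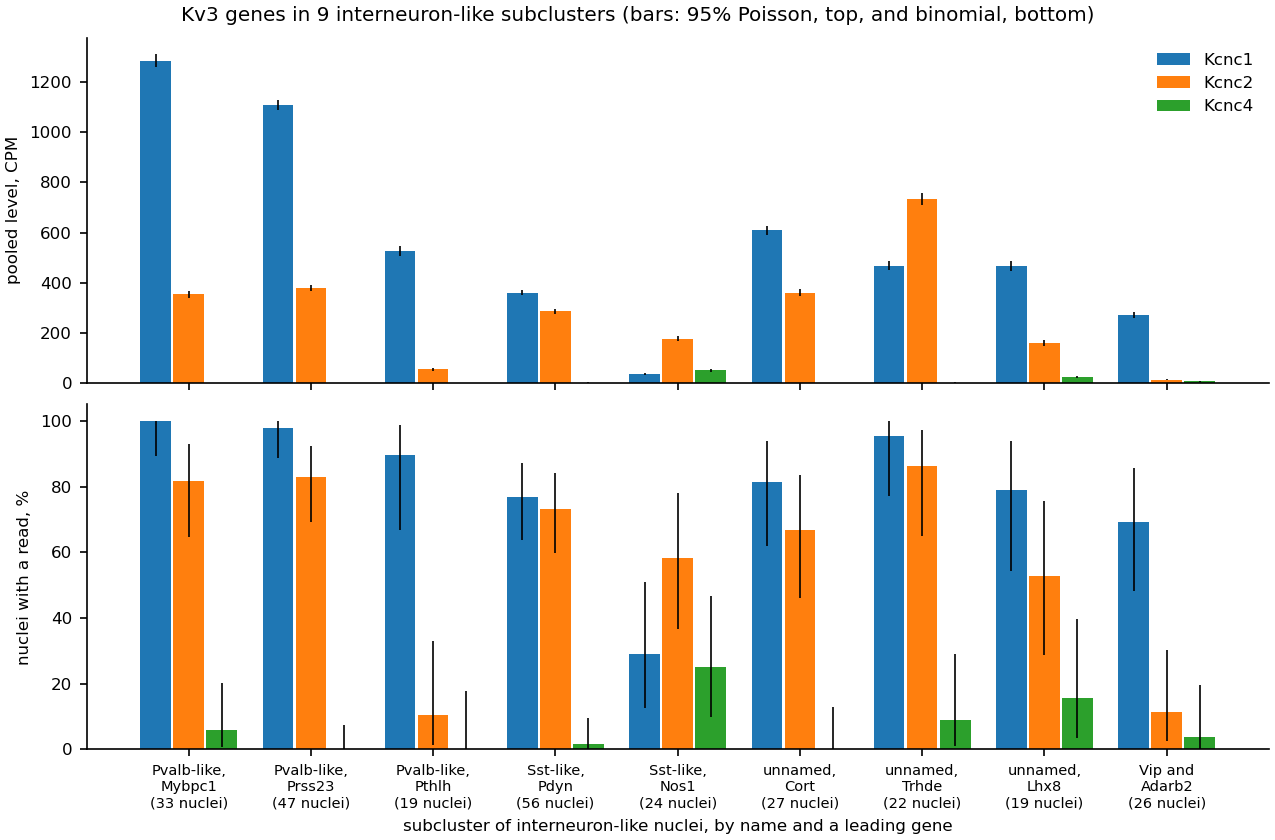
Pooled level in CPM (top) and percent of nuclei with a read (bottom) of Kcnc1, Kcnc2 and Kcnc4 in the 9 subclusters of interneuron-like nuclei, labelled by name, a leading gene and the number of nuclei; error bars are exact 95% Poisson and Clopper-Pearson intervals, for counting error only. Kcnc2 is low in the Pthlh and in the Vip and Adarb2 subclusters, at 54.4 and 12.2 CPM, and Kcnc4 is highest in the Nos1 subcluster, at 49.5 CPM. The subcluster labelled Vip and Adarb2 is Lamp5-like by the marker rule. Mybpc1, the label of a Pvalb-like subcluster, is also among the leading genes of the Prss23 one.

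Of 30 other voltage-gated potassium channel subunit genes, 18 were tested between interneuron-like and glutamatergic-like sums. In interneuron-like sums 1 was higher and 4 were lower, beside 1.69% higher and 1.48% lower over all genes. Their median log2 fold change was -0.97 beside 0.34 over all genes. The one that rose was Kcns3, a silent subunit that forms no channel alone (156 ± 124 CPM in interneuron-like, 0.944 ± 2.22 CPM in glutamatergic-like sums). Among those that fell were Kcnv1, another silent subunit (2.32 ± 4.44 CPM in interneuron-like, 141 ± 107 CPM in glutamatergic-like sums), and Kcnh3, a Kv12 subunit (2.58 ± 4.47 CPM in interneuron-like, 87.0 ± 84.0 CPM in glutamatergic-like sums). Against striatal projection neuron-like sums 17 were tested, with 2 higher and 3 lower and a median of -0.54 beside 0.62 over all genes. Of all genes 5.34% were higher and 3.19% lower there. Kcna2, the Kv1.2 subunit, was higher (205 ± 81.3 CPM in interneuron-like, 68.4 ± 67.5 CPM in striatal projection neuron-like sums). Kcns3 was also higher, with 0 counts in striatal projection neuron-like sums and a pooled interneuron-like level of 1256 times the floor of 3 counts. Kcnh4, a Kv12 subunit, was lower (0.843 ± 2.36 in interneuron-like, 152 ± 54.9 CPM in striatal projection neuron-like sums). Between striatal projection neuron-like and glutamatergic-like sums 1 of 17 passed, beside 3.08% of all genes. It was Kcnh7, an erg-type subunit, which was lower (42.1 ± 41.4 and 493 ± 216 CPM in striatal projection neuron-like and glutamatergic-like sums). Between Pvalb-like and Sst-like sums 0 of 10 passed by edgeR, beside 0.758% of all genes. Of these 10 genes 3 had an unadjusted p under 0.05, 3 were called by DESeq2 and 2 by limma.

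Of 16 genes that work beside Kv3 in fast-spiking cells, all tested, 5 were higher and 0 lower in interneuron-like than in glutamatergic-like sums, with a median log2 fold change of 1.98 beside 0.34 over all genes. Among the 5 were Ppargc1a, a coactivator of mitochondrial genes (156 ± 111 and 14.1 ± 24.9 CPM in interneuron-like and glutamatergic-like sums), Kcnab1, a Kv1 auxiliary subunit (183 ± 63.2 CPM in interneuron-like, 31.1 ± 58.0 CPM in glutamatergic-like sums), and Cox6a2, a subunit of cytochrome c oxidase (56.5 ± 30.2 CPM in interneuron-like, 2.40 ± 8.32 CPM in glutamatergic-like sums). Against striatal projection neuron-like sums 5 of 15 were higher and 1 lower, beside 5.34% higher and 3.19% lower over all genes. Cox6a2 was higher, with 0 counts in striatal projection neuron-like sums and a pooled interneuron-like level of 628 times the floor of 3 counts. Scn4b, a sodium channel beta subunit, was lower (11.2 ± 18.4 and 233 ± 118 CPM in interneuron-like and striatal projection neuron-like sums). Between Pvalb-like and Sst-like sums 2 of 15 were higher and 0 lower, beside 0.323% higher and 0.435% lower over all genes. The 2 were Syt2, the calcium sensor of fast transmitter release (178 ± 142 CPM in Pvalb-like, 0.774 ± 2.57 CPM in Sst-like sums), and Cox6a2 (154 ± 92.3 CPM in Pvalb-like, 0.281 ± 0.933 CPM in Sst-like sums), each in 11 of 11 vectors. Between striatal projection neuron-like and glutamatergic-like sums 1 of 11 was higher, Kcnab1 (299 ± 107 and 13.7 ± 25.4 CPM in striatal projection neuron-like and glutamatergic-like sums). Of all genes 1.66% were higher there.

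Of 14 genes for proteins known to regulate or carry Kv3 channels, 12 were tested in each comparison. None passed between interneuron-like and glutamatergic-like or between striatal projection neuron-like and glutamatergic-like sums by edgeR, beside 3.16% and 3.08% of all genes. In each, 2 had an unadjusted p under 0.05, 1 was called by DESeq2 and 2 by limma. Ank3, the ankyrin of the axon initial segment (535 ± 161 CPM in interneuron-like, 917 ± 176 CPM in striatal projection neuron-like sums, log2 fold change -0.85), and Prkcb, a protein kinase C, were lower in interneuron-like than in striatal projection neuron-like sums. Of all genes 3.19% were lower in that comparison. Between Pvalb-like and Sst-like sums 0 of 12 were higher and 1 was lower, beside 0.323% and 0.435% of all genes. The median log2 fold change of the 12 was 0.215 there, beside 0.219 over all genes. With 12 genes tested, these counts do not describe the regulators as a set.

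**Figure D4:**
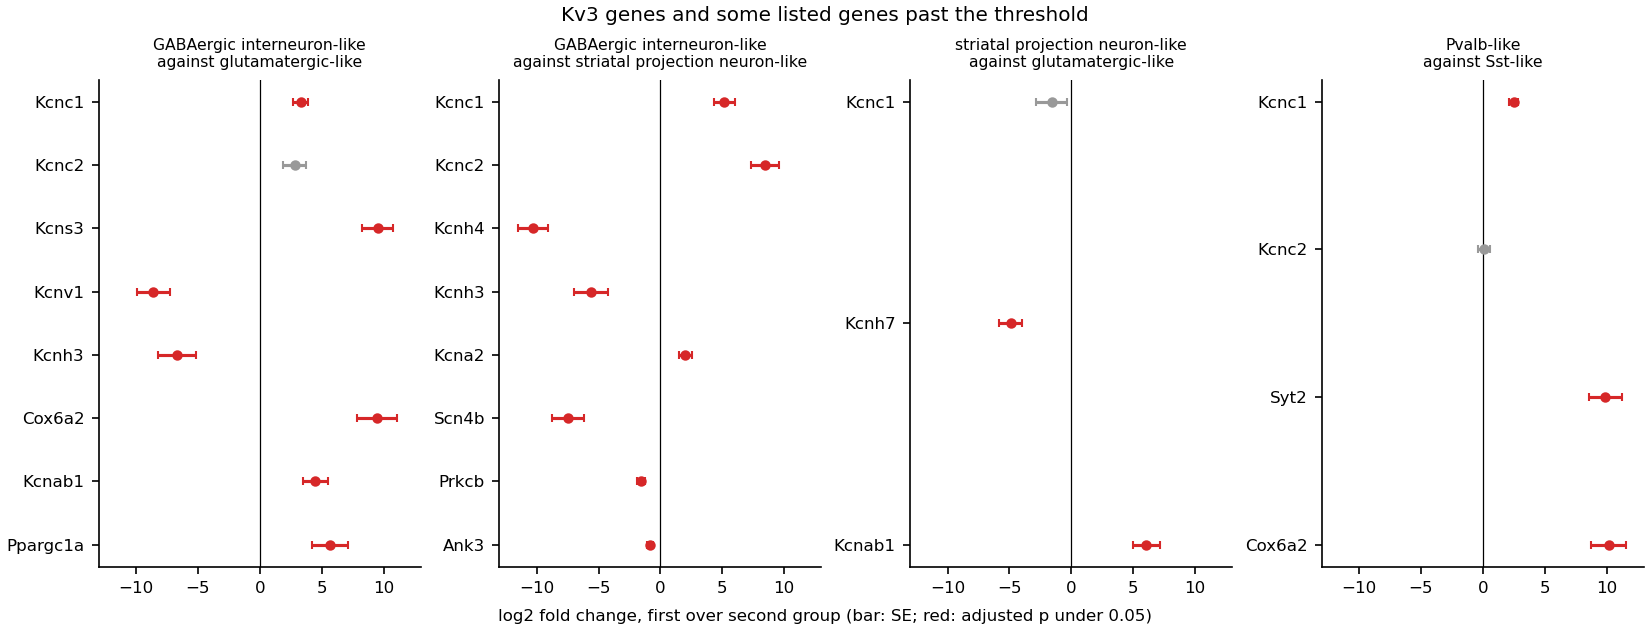
Log2 fold change of the first over the second group on the horizontal axis, with its SE, for the tested Kv3 members and the listed genes named in the text in 4 comparisons, leaving out genes with no count in a group; red marks an adjusted p under 0.05 by edgeR. Kcnc1 passes in 3 comparisons, at 3.28, 5.16 and 2.48, and Kcnc2 in 1, at 8.47.

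By vector, the Kv3 levels of all 40 nuclei are given beside the kinds of nuclei held, with no test because each vector is 1 sample. Kcnc1 was highest in AiE0452h at 567 CPM (exact Poisson 95% interval 553 to 580), AiE0600m at 485 and AiE0475m at 452 CPM, which held 29, 28 and 27 interneuron-like nuclei, the most of the 20 vectors. It was lowest in AiE0410m at 16.7 CPM and hI56i at 23.3 CPM, which held 1 and 4. Kcnc2 was highest in AiE0600m at 388 CPM, where 12 of the 28 interneuron-like nuclei were Pvalb-like, 1 Sst-like and 15 of other subclusters, and was 214 CPM in AiE0475m and 165 CPM in AiE0452h. Kcnc4 was highest in hSyn1 at 88.6 CPM, and next in CMV at 26.9 CPM with 18 glutamatergic-like nuclei. In hSyn1 a single nucleus under the minimum of 1000 genes held 3960 CPM of Kcnc4, and its 27 glutamatergic-like nuclei held 32.3 CPM. The vector AiE0387m combined 346 CPM of Kcnc1 with 58.6 CPM of Kcnc2, and had 14 interneuron-like and 25 striatal projection neuron-like nuclei. Within Pvalb-like nuclei alone Kcnc1 spanned 220 CPM in AiE0450h (3 nuclei) to 1796 CPM in hSyn1 (4 nuclei) over 16 vectors, with a median of 943 CPM.

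**Figure D5:**
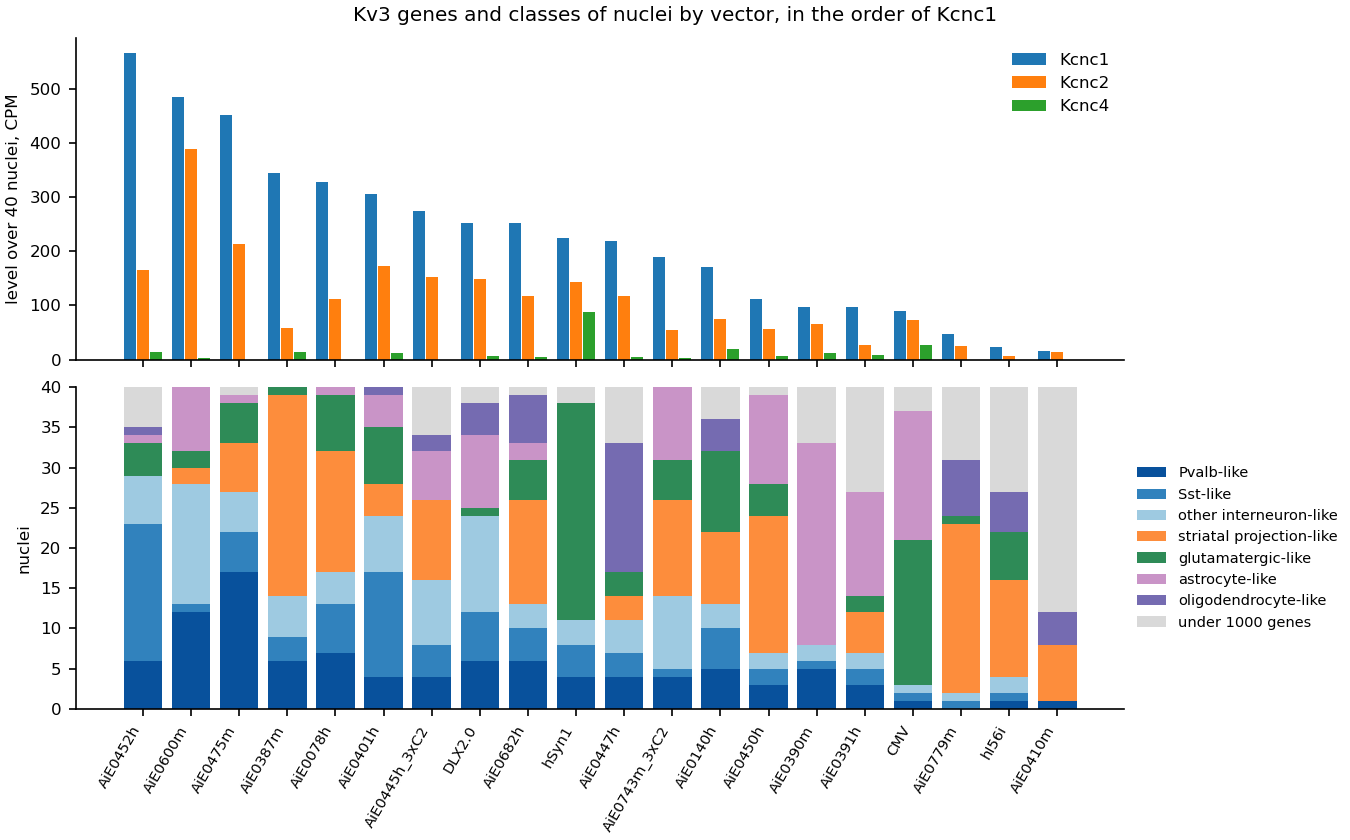
Level of the Kv3 members over all 40 nuclei of each vector in CPM (top) and the number of nuclei of each class or kind (bottom), for 20 vectors in descending order of Kcnc1. The 3 vectors with the highest Kcnc1, from 567 to 452 CPM, hold the most interneuron-like nuclei.

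Over 60 sums of 1 class in 1 vector, and among 10636 other genes with a mean of at least 10 CPM, the genes whose log2(CPM + 1) was most like that of Kcnc1 were Col19a1 (Pearson r = 0.81), Podxl2 (0.80) and Gm13629 (0.78). Those most like Kcnc2 were Grip2 (0.84), Coro6 (0.84) and Trpc4 (0.84), and those most like Kcnc4 were Prr13 (0.58), Mta1 (0.57) and Kcnk9 (0.57). Kcnc1 and Kcnc2 had r = 0.70 with each other, and Kcnc4 had 0.06 with Kcnc1 and 0.27 with Kcnc2. The sums share vectors and libraries, so these are descriptions.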

How the data were processed

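Single nuclei were profiled with SMART-Seq v4, 1 nucleus per library, and the authors deposited 1 table of raw read counts per gene and nucleus. Reads were aligned with STAR 2.7.2a to mm10, per the submitters' processing notes; neither the annotation nor the counting tool is named there or in the labels. The table has 2501 columns, of which 800 carry labels and 1701 were not used. Vector sums held 9467151 to 12192831 counts.

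Symbols and positions came from GENCODE M21. Nuclei with at least 1000 genes were clustered with scanpy 1.11.5 and leidenalg 0.10.2 (2000 variable genes, 30 components, 15 neighbours, resolution 1), without the Kv3 genes and 3 gene lists, 64 genes in all. Clusters were named where at least 3 markers were each read in 25% of nuclei, no other list had more markers among the top 10 genes, and depth was not low. An interneuron kind also needed its title gene (Pvalb, Sst and the like) in 25% of nuclei and in more nuclei than any other kind's: the Cort subcluster had Pvalb in 37.0% and Sst in 44.4% of nuclei and stayed unnamed. How markers were scored was decided with the clusters in view. No doublet caller was run. Counts were summed per vector and class, with at least 3 nuclei a sum, and tested with edgeR 4.0.16 (quasi-likelihood, TMM, low-count filter, vector as a block, Benjamini-Hochberg over all genes tested, threshold 0.05) in R 4.3.3. The vector pairs the sums, since both sums of a pair come from nuclei given the same virus in the labels. The SE beside a fold change was worked out from the edgeR test. It is the size of the log2 fold change divided by the square root of the F value. DESeq2 1.42.0 and limma 3.58.1 were alternatives. The edgeR fit was also run on simulated counts with known changes. At a true log2 fold change of 3 in size it called 31 of 93 changed genes between interneuron-like and glutamatergic-like sums. Between Pvalb-like and Sst-like sums it called 23 of 86. At a size of 6 it called 85 of 91 and 75 of 82. A gene not called here may therefore still differ. Named genes were the members, up to 4 called genes per list and comparison with the smallest adjusted p, and the 3 genes most like each member; some genes this rule names are not reported here. The members and lists were chosen with earlier results of these data known. Promoter sequences are RefSeq's on GRCm38.p6. Python 3.11.15 was used.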

Additional observations from a re-analysis of the deposited data

Results flagged for a closer look

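In 9 groups of 4 to 10 vectors, a vector was set apart where its gap to the nearest other, over the range, exceeded Dixon's critical value. Chance does so in about 1 in 20 groups of normally spread values, and that rate does not apply to these groups, where many sums were 0. Where only 1 vector held a read, the rule sets it apart whatever its level, so these flags are descriptions. Among astrocyte-like sums, Kcnc1 was 92.9 CPM in AiE0445h_3xC2, and Kcnc2 was 68.7 CPM in DLX2.0 and 0 in the other 8 vectors. Among oligodendrocyte-like sums, Kcnc1 was 48.9 CPM in AiE0682h and 0 in the other 6. Among the striatal projection neuron-like sums compared with glutamatergic-like ones, AiE0450h was highest for both Kcnc1, at 161 CPM, and Kcnc2, at 12.9 CPM.

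The 102 nuclei with fewer than 1000 genes entered no comparison of classes, and still held reads above the 0.122 CPM that 3 counts would give. Kcnc1 was 31 CPM in them, from 3 nuclei, Kcnc2 was 13.9 CPM, from 1 nucleus, and Kcnc4 was 26.9 CPM, from 2 nuclei.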

How the results depend on the processing

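Interneuron-like against glutamatergic-like sums gave 283 calls with edgeR, 1529 with DESeq2, 1307 with limma, 484 without the filter, 161 with equal numbers of nuclei, 98 within series S40326 and 41 without runs holding a striatal projection neuron-like nucleus. Against striatal projection neuron-like sums, 786 calls became 2779 with DESeq2, 2988 with limma, 1413 without the filter and 382 within S40326. Striatal projection neuron-like against glutamatergic-like sums gave 234 calls, and 1066 with DESeq2, 1262 with limma, 400 without the filter, 130 with at least 5 nuclei and 54 within S40326. Pvalb-like against Sst-like sums gave 54 calls, and 615 with DESeq2, 368 with limma, 118 without the filter, 32 with a minimum of 500 genes, 20 with the marker score, 3 with at least 5 nuclei, 15 within S40326, 25 without those runs and 27 without the Nos1 subcluster. The causes were not tested.

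Without the replicate block on vector, Pvalb-like against Sst-like sums gave 33 calls and a Kcnc2 log2 fold change of -0.12. The block changed no call of a member: without it Kcnc1 was 2.64 (adjusted p = 0.00244 by edgeR) and Kcnc2 2.03 (adjusted p = 0.110) against glutamatergic-like sums.

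For Kcnc2 against glutamatergic-like sums the log2 fold change was 2.85 with DESeq2, 2.88 without the filter and 3.21 with limma, all past the threshold. Kcnc1 there was no longer past it within S40326 (3.20) and without Pvalb-like nuclei (2.43), nor was Kcnc1 between Pvalb-like and Sst-like sums with at least 5 nuclei (2.04) and without runs holding a striatal projection neuron-like nucleus (2.42). Kcnc1 between striatal projection neuron-like and glutamatergic-like sums passed with limma (-1.81). Kcnc2 between Pvalb-like and Sst-like sums, 0.09, turned to -0.24 with the marker score, -0.021 with at least 5 nuclei, -0.17 with limma, -0.10 without those runs, -0.0053 without the Pthlh subcluster, -0.041 without hSyn1 and -0.04 without AiE0475m. The difference in Kcnc2 share was -51.9 points with a minimum of 2000 genes (3 vectors) and -28.4 with at least 5 nuclei (5 vectors). The settings without Pvalb-like nuclei, without a subcluster, on the share and on the floor ratios of Kcnc4 were chosen after seeing the data.

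Leaving out each vector in turn gave 207 to 347, 661 to 825, 176 to 229 and 37 to 55 calls in the 4 comparisons as ordered above. Kcnc1 ran from 2.96 to 3.57, 4.74 to 5.56, -2.05 to -1.11 and 2.30 to 2.7. Kcnc2 ran from 2.44 to 3.23 against glutamatergic-like, 8.06 to 9.15 against striatal projection neuron-like and -0.041 to 0.23 between Pvalb-like and Sst-like sums, and the share difference from -35.1 to -29.8. Median-ratio scaling moved the median of all genes by -0.12 (log2) between striatal projection neuron-like and glutamatergic-like sums. Series S40324 alone could not be fitted, with at most 1 vector holding both groups. Kcnc4 did not pass the low-count filter in any of the 4 comparisons.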
